A study of Mus musculus with 6 samples.

Results

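Small nucleolar RNA (snoRNA) host genes were followed in mouse KP cells in which a hairpin against Npm1, which encodes the nucleolar protein nucleophosmin, was switched on or left off. The members are 10 named long noncoding host genes, chosen by name: Gas5, Snhg1, Snhg3, Snhg4, Snhg5, Snhg6, Snhg8, Snhg12, Snhg15 and Zfas1. Gene symbols were matched to 9 of them among 48526 gene identifiers, and Snhg4 is not analysed here. Of the 9, 8 passed the filter on low counts and were tested among 14531 genes, and Snhg3 did not pass. The treated group held cells of 3 stable lines, each with a doxycycline-inducible pLKO.1-Tet on vector for 1 of 3 hairpins (shNpm1-3, shNpm1-4 or shNpm1-5), grown with 100 ng/ml doxycycline. The untreated group held the same 3 lines without doxycycline. All 6 libraries thus came from cells that carried an Npm1 hairpin vector and had been selected with puromycin. The lines are called 3, 4 and 5 after their hairpins. Each line had 1 library per condition, so p-values measure the spread between lines, and no library had doxycycline without an Npm1 hairpin. The labels name the cells as KP and no other cell type, and do not say whether a line is 1 clone.

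snoRNAs are short RNAs of the nucleolus that guide the chemical modification of ribosomal RNA. Box C/D snoRNAs guide methylation by fibrillarin, and box H/ACA snoRNAs guide pseudouridylation by dyskerin. In mammals most are cut from introns of a host transcript after splicing. Several long noncoding host genes, Gas5 and Snhg1 among them, are transcribed with a start like that of ribosomal protein messages (a terminal oligopyrimidine tract), and their spliced RNA is removed by nonsense-mediated decay, a pathway that depends on translation. The level of a spliced host RNA therefore need not follow the output of its snoRNAs.

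The hosts differ in the snoRNAs that they carry, and 5 of these are shown because they mark both classes within the hosts described here. The annotated sequences (GENCODE M21, build GRCm38, strand of the host) are printed 5′ to 3′. Capitals mark the C box TGATGA and the D box CTGA in the first 3, and the hinge ANANNA and the terminal ACA in the last 2.
Snord47 in Gas5, chr1:161038082-161038158, plus strand: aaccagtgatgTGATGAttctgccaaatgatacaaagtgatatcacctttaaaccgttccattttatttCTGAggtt
Snord12 in Zfas1, chr2:167065276-167065365, plus strand: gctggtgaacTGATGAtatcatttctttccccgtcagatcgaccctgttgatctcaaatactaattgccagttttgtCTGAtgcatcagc
Snord87 in Snhg6, chr1:9942463-9942549, minus strand: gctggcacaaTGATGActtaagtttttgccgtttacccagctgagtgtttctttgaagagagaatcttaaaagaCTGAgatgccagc
Snora9 in Snhg15, chr11:6528033-6528165, minus strand: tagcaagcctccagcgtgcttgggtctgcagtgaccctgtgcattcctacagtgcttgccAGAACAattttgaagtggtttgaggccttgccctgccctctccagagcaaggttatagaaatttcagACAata
Snora24 in Snhg8, chr3:123507937-123508066, minus strand: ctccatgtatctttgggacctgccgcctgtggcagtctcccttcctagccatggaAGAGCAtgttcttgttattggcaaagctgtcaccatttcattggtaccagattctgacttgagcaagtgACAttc

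The annotation places 33 snoRNA gene records, at 31 separate loci, inside the 9 matched hosts. Of these records 10 are in Gas5, at 9 loci, and 8 are in Snhg1. The files hold almost no reads for them. Snord87 in Snhg6 had 3, 6 and 10 counts in lines 3, 4 and 5 with doxycycline, against 10, 9 and 9 counts without it. One of the records for Snora16a in Snhg12 had 1 count, and the others had 0 in all 6 libraries. Of the 33 records, 31 overlap an exon of some annotated host transcript, often one with a retained intron, and Snord87 is one of the 2 that do not. Reads lying on more than 1 gene were tallied apart by the authors' counting, at 2.93% to 3.26% of all reads in a library. Whether this tally holds snoRNA reads was not tested, so the values below are those of the host RNA and not of its snoRNAs.

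Start sites of 6 hosts are shown because the start of a host transcript is the part tied to its translation. Windows from 15 bases before the RefSeq start (build GRCm38.p6) to the 25th base from it are printed 5′ to 3′, with the longest run of pyrimidines that begins with C in capitals where it has at least 5 bases.
Gas5, chr1:161035151-161035190, plus strand: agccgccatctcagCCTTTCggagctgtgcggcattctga
Zfas1, chr2:167062919-167062958, plus strand: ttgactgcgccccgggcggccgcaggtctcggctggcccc
Snhg1, chr19:8723472-8723511, plus strand: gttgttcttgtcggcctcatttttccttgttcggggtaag
Snhg12, chr4:132308663-132308702, plus strand: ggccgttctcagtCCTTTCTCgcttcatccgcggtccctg
Snhg8, chr3:123508312-123508351, minus strand: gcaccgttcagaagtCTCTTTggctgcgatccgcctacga
Snhg15, chr11:6528736-6528775, minus strand: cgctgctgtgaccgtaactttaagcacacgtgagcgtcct
The run in Snhg12 had 8 bases and those in Gas5 and Snhg8 had 6, each beginning within 2 bases of the RefSeq start. For Gas5 this is the downstream one of 2, and the longest such run at the upstream one had 3 bases. RefSeq had 9 starts for 8 members, and 3 of the 9 windows held such a run of at least 6 bases, which 28.5% of 32847 mouse promoter windows also hold.

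The libraries held 24391198 to 27341036 counts in genes. Npm1 was at 67.7, 245 and 399 CPM (the count normalised to a TMM-scaled library size) in lines 3, 4 and 5 with doxycycline, against 2000, 1850 and 1923 CPM without it, so that 3.39%, 13.2% and 20.8% remained. Its log2 fold change was -3.02 (adjusted p = 0.0111 by edgeR), and the call was lost without the untreated library of line 3 (-2.99, adjusted p = 0.0937) and without both libraries of line 4 (-3.07, adjusted p = 0.177). Markers of other cells moved with the treatment: 15 macrophage genes summed to 193 to 443 CPM with doxycycline and 45.7 to 50.3 CPM without it, and 12 of the 14 tested rose. The 15 lymphocyte genes summed to 5.93 to 9.27 CPM with doxycycline and 21.5 to 29.5 CPM without it, and Cd3d, Nkg7, Gzma and Ms4a1 were at 0 in the 3 treated libraries, and 9 of the 12 tested fell. The 12 epithelial genes summed to 11911 to 16598 CPM with doxycycline and 15543 to 17844 CPM without it, and 1 of the 11 tested fell, while all 11 had a log2 fold change below 0 (median -0.29). In bulk RNA, fewer cells of a type and less RNA per cell cannot be told apart, and the part of these genes in the results below was not tested. The treated library of line 3 stood apart: 37.8% of its reads aligned to more than 1 place, against 31.4% to 34.6% in the other 5.

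With doxycycline none of the 8 tested hosts rose or fell when the 3 lines were taken as replicates (edgeR's quasi-likelihood test, with p adjusted by Benjamini-Hochberg over all tested genes and a threshold of 0.05). Of all tested genes 2.28% passed, with 0.963% of tested genes higher and 1.32% lower. Their adjusted p were 0.354 to 0.996, and none had an unadjusted p under 0.05, as 16.3% of all tested genes did. DESeq2 also called 0 of the 8, and 4.95% of all tested genes. Their log2 fold changes lay between -0.17 and 0.37, with 5 above 0 and 3 below, and a median of 0.084 beside 0.0032 over all tested genes. This split turned with the fit. Offsets for length and GC content gave 3 above 0 and 5 below, with a median of -0.13 (0.028 over all tested genes). Without the treated library of line 3 it was 2 above and 6 below (median -0.26), and without that of line 4 all 8 were above 0 (median 0.29). Summed over the 8 hosts, the level was 1251 ± 491 CPM with doxycycline and 1244 ± 129 CPM without it (SD, n = 3 each). By library the sums were 1817, 934 and 1003 CPM in lines 3, 4 and 5 with doxycycline, against 1334, 1096 and 1303 CPM without it. The means of the groups were thus nearly equal, while the treated libraries spread over a wider range than the untreated ones and lay on both sides of them. Gas5, Zfas1 and Snhg1 were the largest parts of the sum in every library, at 30.0%, 31.9% and 17.2% in untreated line 3. Of these, Gas5 and Zfas1 had a lower mean with doxycycline and Snhg1 a higher one.

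The treated library of line 3 had the highest level of all 6 libraries for each of the 8 hosts, as 24.8% of all tested genes did, and it had it for all 8 also with library totals alone as the scale. Within lines 4 and 5 the hosts split. Gas5, Zfas1, Snhg5 and Snhg12 were lower with doxycycline in both, Snhg1 and Snhg15 were higher in both, and Snhg6 and Snhg8 differed between them. No host was lower in all 3 lines (19.5% of tested genes were), and 2 of the 8, Snhg1 and Snhg15, were higher in all 3 (19.1% of tested genes). For no host did the groups of 3 libraries separate, where they did for 22.6% of tested genes.

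**Figure D1:**
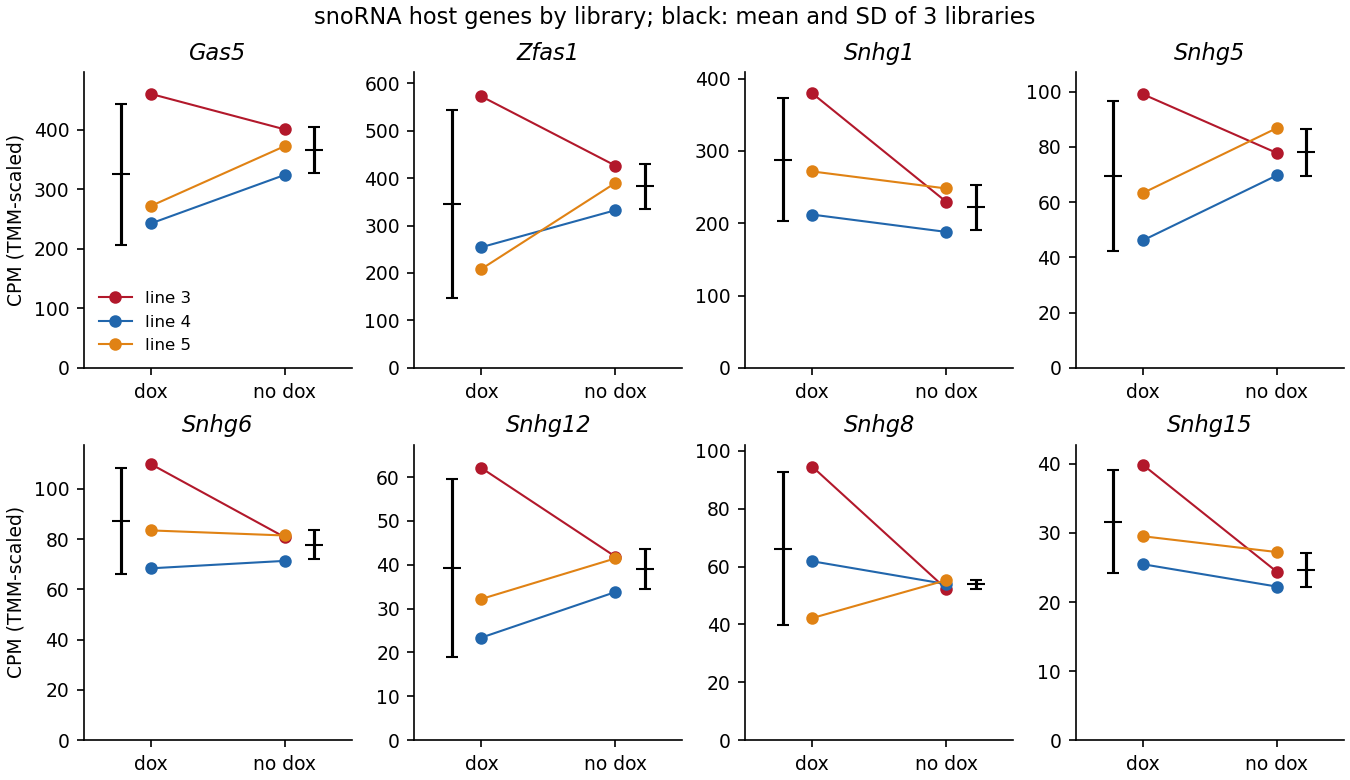
CPM (linear axis from 0) of the 8 tested host genes in each library, with doxycycline (dox) on the left and without it on the right. Coloured points are libraries, lines join the libraries of a cell line, and black bars are the mean and SD of 3 libraries. The treated library of line 3 is the highest point in every panel, and Gas5, Zfas1, Snhg5 and Snhg12 slope in opposite directions in line 3 and in lines 4 and 5.

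Of the hosts of box C/D snoRNAs, Gas5 (growth arrest-specific 5) carries 10 annotated snoRNA gene records at 9 separate loci. Gas5 is known to accumulate in cells whose growth stops. It lies on chromosome 1 (161034422 to 161038539, plus strand, GRCm38), with 3760 annotated exonic bases. Gas5 was at 460, 243 and 272 CPM in lines 3, 4 and 5 with doxycycline, against 401, 324 and 373 CPM without it. The line 3 value with doxycycline lay above all 3 untreated libraries and the other treated values below all 3. The group means were 325 ± 118 CPM with doxycycline and 366 ± 38.7 CPM without it (SD, n = 3 each), and edgeR gave a log2 difference of -0.17 ± 0.22 (SE) with an adjusted p of 0.769. Within lines the ratio of treated to untreated was 1.15 in line 3, with a 95% exact binomial interval of 1.12 to 1.18, then 0.748 in line 4 (0.725 to 0.772) and 0.730 in line 5 (0.708 to 0.753). Such intervals cover counting error only, since each line had 1 library per condition.

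Zfas1 begins next to Znfx1 on the opposite strand and carries Snord12 and relatives of it. Its gene (chromosome 2, 167062934 to 167065862, plus strand) shares 9.25% of its 2929 exonic bases with annotated genes other than its snoRNAs. It was at 572, 254 and 209 CPM in lines 3, 4 and 5 with doxycycline, against 426, 332 and 390 CPM without it. As for Gas5, line 3 stood above the untreated libraries and lines 4 and 5 below them, over a wider span. The means were 345 ± 198 CPM with doxycycline and 383 ± 47.3 CPM without it (SD, n = 3 each; log2 fold change -0.15, SE 0.32, adjusted p = 0.870 by edgeR). The ratio within a line was 1.34 in line 3 (95% exact interval 1.31 to 1.38), 0.766 in line 4 (0.742 to 0.790) and 0.535 in line 5 (0.518 to 0.553). Zfas1 had the widest range over the lines of the 8 hosts, 1.33 on the log2 scale.

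Snhg5, the host of the Snord50 pair, is on chromosome 9 (88521050 to 88522929, minus strand). Its level was 99.1, 46.1 and 63.3 CPM in lines 3, 4 and 5 with doxycycline, against 77.8, 69.7 and 86.8 CPM without it. It followed the pattern of Gas5, with log2 ratios within lines 3, 4 and 5 of 0.35, -0.59 and -0.46 and a fitted log2 difference of -0.17 ± 0.24 (SE; adjusted p = 0.783 in edgeR).

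Snhg1, the host of Snord22 and its neighbours, lies on chromosome 19 (8723475 to 8726443, plus strand). It was at 380, 212 and 272 CPM in lines 3, 4 and 5 with doxycycline, against 230, 188 and 248 CPM without it. Each line was higher with doxycycline, and the groups overlapped because line 4 was lowest in both conditions. The means were 288 ± 85.0 CPM with doxycycline and 222 ± 30.8 CPM without it (SD, n = 3 each; log2 fold change 0.37, SE 0.20, adjusted p = 0.407 by edgeR). The within-line ratio was 1.65 in line 3 (95% exact interval 1.598 to 1.71), 1.13 in line 4 (1.09 to 1.17) and 1.09 in line 5 (1.06 to 1.13). Line 3 thus held most of the difference.

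Snhg6, the host of Snord87 (sequence above; chromosome 1, 9941959 to 9944118, minus strand), was at 110, 68.4 and 83.5 CPM in lines 3, 4 and 5 with doxycycline, against 80.7, 71.3 and 81.4 CPM without it. Only line 3 differed by more than counting error among its within-line ratios, at 1.36 (95% exact interval 1.28 to 1.44), and the intervals of lines 4 and 5 spanned 1. The log2 fold change was 0.16 (SE 0.17, adjusted p = 0.695 by edgeR), and -0.11 (adjusted p = 0.738) when offsets took out trends with transcript length and with GC content. Its exonic bases overlap those of Mcmdc2 on the opposite strand at 11.1%, and Mcmdc2 had at most 6 counts in a library.

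Snhg12 carries snoRNAs of both classes (chromosome 4, 132308623 to 132311024, plus strand). Of the starts printed above, its own has the longest pyrimidine run that begins with C. Pyrimidines ahead of the first C, as in the window of Snhg1, were not counted. Snhg12 was at 62.1, 23.4 and 32.2 CPM in lines 3, 4 and 5 with doxycycline, against 41.9, 33.8 and 41.5 CPM without it. Line 3 lay above the untreated range and lines 4 and 5 below it, as for Gas5 and Zfas1. The log2 fold change was 0.0035 (SE 0.29, adjusted p = 0.996 by edgeR), and its sign depended on the scaling: it was -0.011 with library totals alone as the scale.

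Of the hosts of box H/ACA snoRNAs, Snhg8, which carries Snora24 (chromosome 3, 123507552 to 123508404, minus strand), was at 94.6, 61.8 and 42.2 CPM in lines 3, 4 and 5 with doxycycline. The untreated libraries were close to one another, at 52.3, 54.0 and 55.3 CPM. The treated libraries lay on both sides of this range, and the SD was 26.5 CPM with doxycycline and 1.48 CPM without it (n = 3 each). The log2 fold change was 0.30 (SE 0.24, adjusted p = 0.593 by edgeR), with ratios of 1.81 (95% exact interval 1.69 to 1.94), 1.15 (1.07 to 1.23) and 0.763 (0.705 to 0.826) within lines 3, 4 and 5.

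Snhg15, which carries Snora9 (chromosome 11, 6525591 to 6528760, minus strand), was at 39.9, 25.5 and 29.5 CPM in lines 3, 4 and 5 with doxycycline, against 24.4, 22.2 and 27.2 CPM without it. Its levels were higher with doxycycline in each line, by ratios of 1.64, 1.15 and 1.08 in lines 3, 4 and 5, and the interval of line 5 spanned 1 (0.978 to 1.20). The log2 fold change was 0.36 (SE 0.18), and its adjusted p, 0.354 in edgeR, was the lowest of the 8.

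Snhg3, the host of Snora73a and Snora73b (chromosome 4, 132348014 to 132353686, minus strand), had 1, 1 and 0 counts in lines 3, 4 and 5 with doxycycline, against 0, 1 and 0 counts without it. This is below a floor of 3 counts per library, which corresponds to 0.0990 to 0.137 CPM, and no fold is given. Of its exonic bases 83.3% are shared with annotated genes other than its snoRNAs, among them Rcc1 on the same strand and Gm17300 on the other. A low count of this host can therefore not be told apart from reads that were left uncounted for lying on more than 1 gene.

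**Figure D2:**
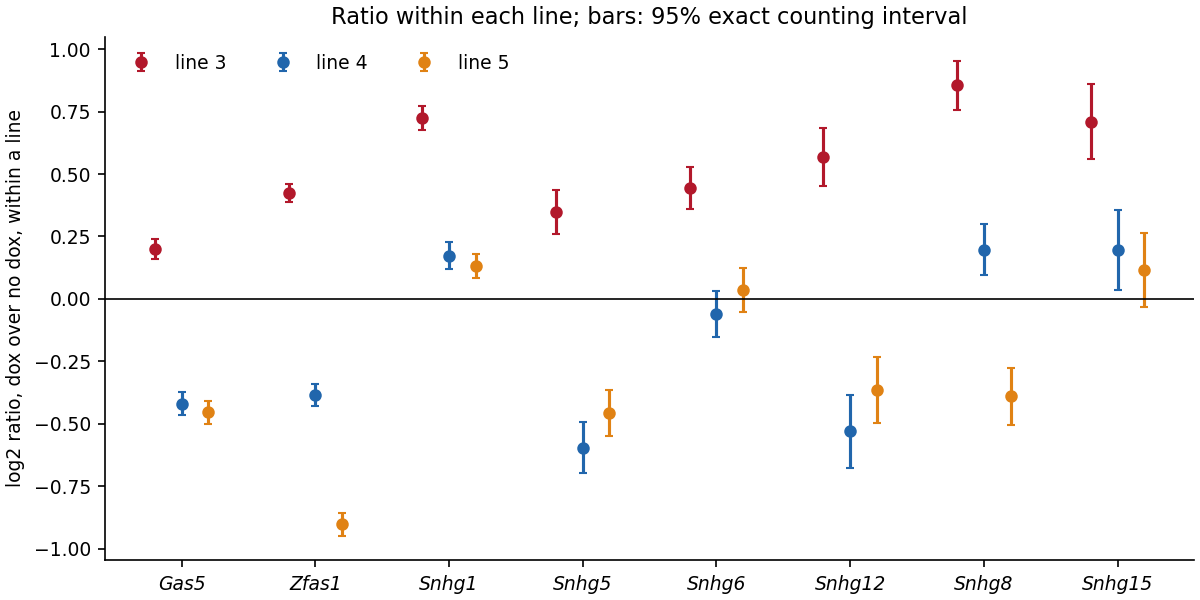
Log2 ratio of treated to untreated CPM within each line (linear axis, 0 is no difference) for the 8 tested hosts, with 95% exact counting intervals. All 8 points of line 3 lie above 0, and the points of lines 4 and 5 lie below 0 for Gas5, Zfas1, Snhg5 and Snhg12.

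The hosts also differed in how much RNA they gave per length. Per kb of annotated exonic bases, which include retained introns, Zfas1 was highest in both groups, at 118 ± 67.6 CPM per kb with doxycycline and 131 ± 16.1 CPM per kb without it (SD, n = 3 each). Snhg12 was lowest, at 16.3 ± 8.44 CPM per kb with doxycycline and 16.3 ± 1.89 CPM per kb without it. With doxycycline the order was Zfas1, Snhg1, Gas5, Snhg8, Snhg6, Snhg5, Snhg15 and Snhg12, and the ranges of all neighbours overlapped except those of Snhg6 and Snhg5. Without doxycycline the order was Zfas1, Gas5, Snhg1, Snhg6, Snhg8, Snhg5, Snhg15 and Snhg12. There the ranges of Snhg1 and Snhg6, of Snhg6 and Snhg8, and of Snhg15 and Snhg12 overlapped, and those of the other neighbours did not.

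The number of calls among the hosts depended on the treated library of line 3. Without that library Gas5 fell (log2 fold change -0.50, edgeR adjusted p = 0.0276) and so did Zfas1 (-0.72, adjusted p = 0.00877), which made 2 of 8 hosts beside 5.79% of all tested genes called lower and 10.4% called in either direction. Snhg5 and Snhg12 had log2 fold changes of -0.51 and -0.49 in that fit, where edgeR gave adjusted p of 0.0606 and 0.0801. Leaving out both libraries of line 3 gave -0.43 for Gas5 and -0.63 for Zfas1, with edgeR adjusted p of 0.0914 and 0.0522, and 0 of 8 hosts passed where 4.5% of all tested genes did. A difference between the responses of the lines could not be tested, since each line had 1 library per condition. Depth of knockdown, the hairpin itself and the state of the 1 treated library differ together between the lines and cannot be told apart. Npm1 was lowest in treated line 3, the line in which all 8 hosts were higher. In that library 37.8% of reads aligned to more than 1 place, and 24.8% of all tested genes had their highest level there.

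**Figure D3:**
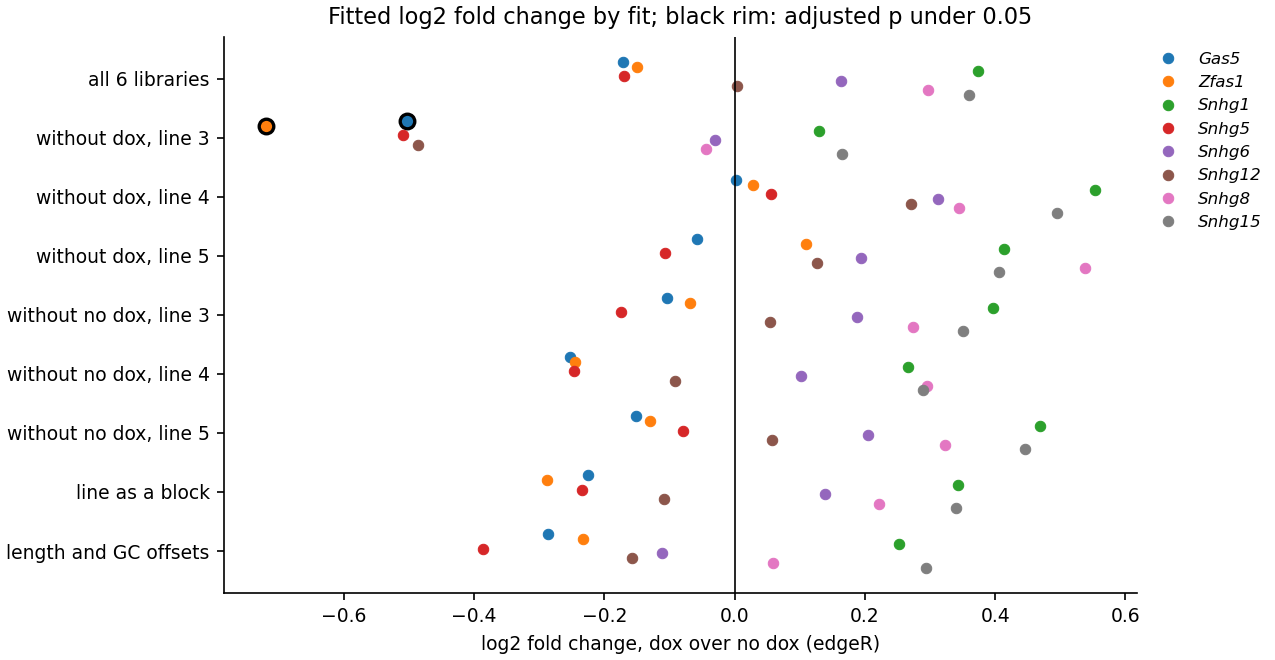
Fitted log2 fold change of the 8 hosts with doxycycline over none (linear axis) in the fit of all 6 libraries, without each library in turn, with the line as a block, and with offsets for transcript length and GC content. Points with a black rim have an edgeR adjusted p under 0.05, which holds for Gas5 and Zfas1 without the treated library of line 3 and for no other point.

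A ratio of counts between 2 hosts in the same library does not depend on library scaling. Relative to Snhg1, a ratio chosen after the values had been seen, Gas5 had 1.21, 1.14 and 1.001 counts per count in lines 3, 4 and 5 with doxycycline, against 1.74, 1.72 and 1.502 without it. Zfas1 had 1.51, 1.20 and 0.768 counts per count of Snhg1 with doxycycline, against 1.85, 1.77 and 1.57 without it. For both, every treated library lay below every untreated one. The groups separated in this way for 5 of the 7 other hosts, Gas5, Zfas1, Snhg5, Snhg6 and Snhg12, as they did for 19.9% of all tested genes set against Snhg1. The same counts of Snhg1 enter all 5, and no test was made of them. Over all 28 pairs of tested hosts the groups separated for 11, and 5 of these were pairs with Snhg1. The pairs share their members, and no share was computed for pairs of other genes, so this count has no background. Snhg15 had a count relative to Snhg1 that differed by less than its spread, 0.111 ± 0.0079 with doxycycline and 0.111 ± 0.00624 without it (SD, n = 3 each).

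**Figure D4:**
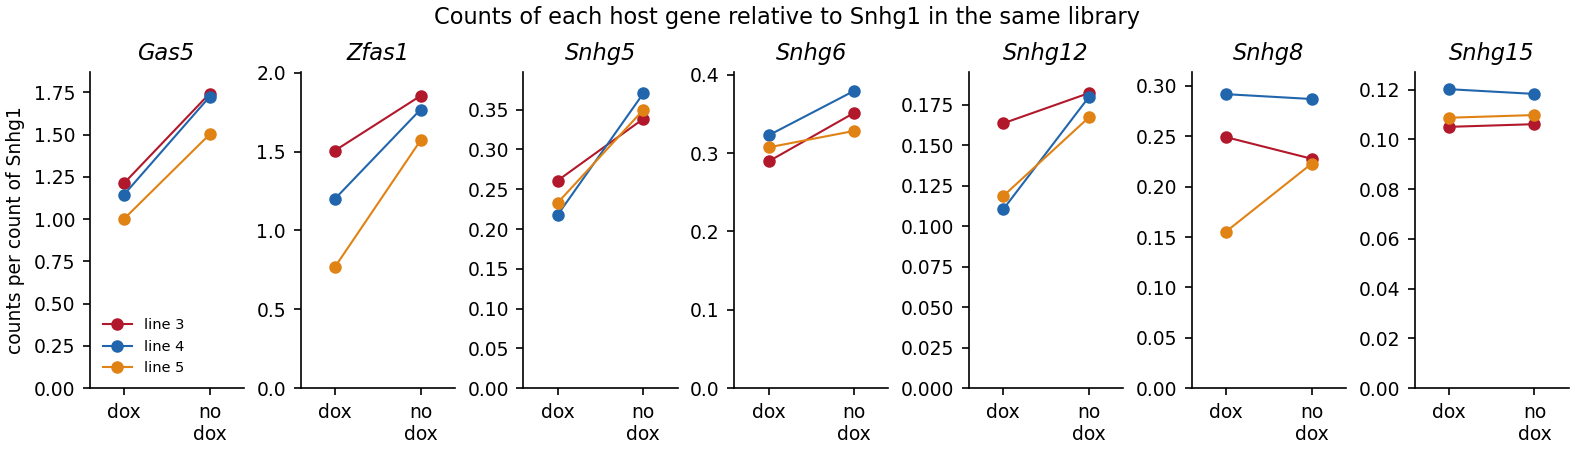
Counts of each host per count of Snhg1 in the same library (linear axes from 0, each with its own scale), with doxycycline on the left and without it on the right, and a line for each cell line. Gas5, Zfas1, Snhg5, Snhg6 and Snhg12 lie lower in every treated library than in any untreated one, Snhg15 is level, and Snhg8 overlaps.

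Differences between the 3 lines, over both conditions, were tested with the line terms of a model with doxycycline and line. None of the 8 hosts passed (edgeR adjusted p = 0.868 for each), nor did any of the 14531 tested genes (0%). Unadjusted p were under 0.05 for 4 of the hosts, Gas5, Snhg1, Snhg12 and Zfas1, and for 4.59% of all genes. With no filter on low counts 2 hosts passed, Snhg12 and Zfas1, beside 0.889% of genes. The within-line ratios of the 8 hosts had a median range over the lines of 0.80 on the log2 scale, beside 0.45 for the 10195 tested genes with a mean of at least 5 CPM.

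Neighbours that share a start region with a host did not all follow its pattern. Slc3a2, the heavy chain of an amino acid transporter, starts 106 bases from Snhg1 on the opposite strand. It was at 325, 151 and 237 CPM in lines 3, 4 and 5 with doxycycline, against 222, 236 and 263 CPM without it (edgeR adjusted p = 0.985). Its level was higher in line 3 and lower in line 4 and line 5, where Snhg1 was higher in all 3. Zbtb37, a zinc finger gene that starts 427 bases from the annotated start of Gas5 on the opposite strand, had log2 ratios of -0.61, 0.26 and 0.65 in lines 3, 4 and 5, each opposite in sign to that of Gas5 (edgeR adjusted p = 0.824). Znfx1, whose start lies next to that of Zfas1, was at 11.1 ± 1.46 CPM with doxycycline and 10.6 ± 1.86 CPM without it (SD, n = 3 each; edgeR adjusted p = 0.902). Rcc1, which overlaps Snhg3, had a log2 fold change of 0.17 (edgeR adjusted p = 0.617), and Gm17300 one of -0.90 (adjusted p = 0.246). Gm27494, inside Zfas1, had no counts.

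Genes tied to the hosts were set beside them. Of 11 other noncoding hosts 9 were matched and 8 tested. None of the 8 passed, and all had a log2 fold change above 0, with a median of 0.27 beside 0.0032 over all tested genes. The lines did not share this sign: only Snhg20 was higher with doxycycline in all 3. Snhg9, Snhg16 and Epb41l4aos were lower with doxycycline in lines 4 and 5. No share of all tested genes above 0 was computed. Snhg20 was at 17.2, 21.2 and 15.3 CPM in lines 3, 4 and 5 with doxycycline, against 14.8, 11.6 and 13.0 CPM without it, and its groups did not overlap, as for 11.3% of tested genes in that direction (log2 fold change 0.45, SE 0.18, adjusted p = 0.242 by edgeR). Snhg11, a host expressed mainly in neurons, had a log2 fold change of 1.06 (SE 0.48, adjusted p = 0.311 by edgeR), with 4.55 CPM in treated line 4 and 0.783 to 1.83 CPM in the other libraries. Of 16 tested protein-coding hosts outside the ribosomal proteins 0 passed, 8 were above 0 and 8 below, with a median of 0.011. The elongation factor gene Eef2 was at 1821, 889 and 1120 CPM in lines 3, 4 and 5 with doxycycline, against 1675, 2185 and 1907 CPM without it (edgeR adjusted p = 0.282). Eef2 fell when the treated library of line 3 was left out (log2 fold change -0.93, edgeR adjusted p = 0.00282), when both libraries of line 3 were (-1.02, adjusted p = 0.0213), and in the fit with no filter on low counts (-0.60, adjusted p = 0.0219). Over the fits without 1 library its value was -0.93 to -0.39. Nop56, a host that also encodes a box C/D protein, had a log2 fold change of 0.25 (edgeR adjusted p = 0.386), with groups that did not overlap.

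Of the 9 tested snoRNP proteins, which bind mature snoRNAs, 1 rose and all 9 were above 0, with a median of 0.16. Over all tested genes 0.963% were called higher, and the median was 0.0032. Nop10, a small subunit of box H/ACA particles, was at 220, 246 and 246 CPM in lines 3, 4 and 5 with doxycycline, against 159, 150 and 161 CPM without it (log2 fold change 0.60, SE 0.12, adjusted p = 0.0303 by edgeR). Of the 9 tested genes of snoRNP assembly 1 rose and 8 were above 0, with a median of 0.079. Znhit3, a zinc finger protein of box C/D assembly, was at 73.1, 71.3 and 72.4 CPM in lines 3, 4 and 5 with doxycycline, against 51.5, 47.2 and 50.6 CPM without it (log2 fold change 0.54, SE 0.11, adjusted p = 0.0378 by edgeR). In edgeR with a term for each line, the log2 fold changes stayed at 0.60 for Nop10 and 0.54 for Znhit3, with adjusted p of 0.0598 and 0.0750. With the length and GC offsets they were 0.42 and 0.33, with edgeR adjusted p of 0.144 and 0.158. Without any 1 library other than the treated one of line 3 the adjusted p were 0.0518 to 0.226 for Nop10 and 0.0521 to 0.261 for Znhit3.

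Of 10 tested factors of nonsense-mediated decay 0 passed, 4 were above 0 and 6 below, with a median of -0.091. Smg6, an endonuclease of this pathway, had a log2 difference of -0.19, with an adjusted p by edgeR of 0.594. Of 15 tested genes with a terminal oligopyrimidine start outside the ribosomal proteins, 1 fell, which was the targeted Npm1 itself, and 12 were below 0, with a median of -0.16. Summed, these genes were at 69374, 38222 and 44780 CPM in lines 3, 4 and 5 with doxycycline, against 65731, 54141 and 56889 CPM without it. This sum, like that of the hosts, was highest in treated line 3. That did not hold for every gene of the list, since Eef2 was highest in untreated line 4. Of 9 tested other long noncoding RNAs 0 passed, 6 were above 0 and the median was 0.25. The microRNA cluster host Mir17hg and the X-linked Ftx had log2 differences of 0.62 and 0.50, with adjusted p by edgeR of 0.329 and 0.354. Without the treated library of line 3 both rose, Mir17hg by 0.90 (edgeR adjusted p = 0.0150) and Ftx by 0.72 (adjusted p = 0.0331), and without both libraries of line 3 Mir17hg rose by 1.01 (adjusted p = 0.0479). Over the fits without 1 library their values were 0.41 to 0.90 and 0.33 to 0.72. Both had their lowest treated level in line 3, where the hosts had their highest.

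The 5 genes whose centred log2 CPM lay nearest to the mean profile of the 8 hosts over the 6 libraries were Rpl12, Gm10443, Dph3, Epb41l4aos and Fbxo6, among genes with a mean of at least 5 CPM. Their root mean square distances were 0.0311 to 0.0416 on the log2 scale, against 0.127 to 0.255 for the hosts themselves. The 5 were picked for small distances and the hosts were not, so this difference follows from the choice. Rpl12, a ribosomal protein gene, was at 4864, 2547 and 2726 CPM in lines 3, 4 and 5 with doxycycline, against 3344, 2911 and 3251 CPM without it. Epb41l4aos, one of the other noncoding hosts, was at 45.2, 24.3 and 26.3 CPM with doxycycline, against 31.9, 28.6 and 30.9 CPM without it. All 5 were higher in line 3 and lower in lines 4 and 5, and none passed the test (edgeR adjusted p = 0.838 to 0.926). The mean profile of the hosts has this shape, so these results too follow from the choice. Shared regulation with the hosts was not tested.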

How the data were processed

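The authors deposited 1 file of raw read counts for each library, without normalization. The submitters' processing notes name STAR, HTSeq, CASAVA, Picard, bedtools, DESeq2, R 3.3.0 and the build mm10. For the annotation release and strand setting nothing was stated in these sources. The last 5 rows name no gene, held 43.7% to 47.7% of reads and were left out. Symbols came from GENCODE M21 and RefSeq synonyms.

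The tests used edgeR 4.0.16 under R 4.3.3 (genes kept by filterByExpr, TMM scaling, quasi-likelihood test, Benjamini-Hochberg adjustment over all genes tested). Alternatives used DESeq2 1.42.0 and limma 3.58.1 (voom), among 18 fits, and the fit with library totals alone was added after the data were seen. The members, lists and tests were chosen with earlier results of these data known. Lists were described by counts and medians. Named beyond the members were up to 3 passing genes of each list, or otherwise 2 of smallest p, neighbours within 1000 bases, and the 5 nearest profiles, computed after adding 0.5 to each CPM.

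Numbers pair the libraries, since those of a number come from the same stable line. Deviations from group means correlated at r = -0.0072, 0.0592 and 0.0267 within lines 3, 4 and 5. The fit without this block was the main one. Libraries of a group were no duplicates (chi-square per degree of freedom 7.89 to 108). Procedures were tested on simulated data, with results not given here. Changes as small as those fitted for the hosts were not simulated, so whether they could be called is not known.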

Additional observations from a re-analysis of the deposited data

Results flagged for a closer look

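For 5 of the 8 tested hosts, cell lines moved in opposite directions beyond counting error. No share over all tested genes was computed for this criterion, so the count has no background. Counting intervals are narrow at the depth of these hosts. The range of the log2 ratio of treated to untreated over the lines was 0.65 for Gas5, 0.94 for Snhg5, 1.10 for Snhg12 and 1.33 for Zfas1, each higher with doxycycline in line 3 and lower in lines 4 and 5. It was 1.24 for Snhg8, higher in lines 3 and 4 and lower in line 5. The difference between lines was not tested, since each had 1 library per condition. By sign alone, with no regard to counting error, lines were opposite for 75% of the tested hosts, Snhg6 included, and for 61.4% of all tested genes.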

How the results depend on the processing

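Without each library in turn, 0 to 2 hosts and 89 to 1551 of all genes were called. Of all genes 332 were called in the fit of all 6 libraries, 720 by DESeq2, 1052 with no filter on low counts, and 664, 62 and 197 without both libraries of line 3, 4 and 5. With the replicate block 243 genes and 0 hosts were called, and among named genes it ended the calls of Nop10 and Znhit3 and no other. The line terms called 0 hosts, and 2 (Snhg12 and Zfas1) with no filter on low counts, where 0.889% of genes passed.

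Signs of the log2 fold change turned in fits that called none of the genes concerned, and the cause was not tested. Snhg12 was at -0.0067 with no filter on low counts, -0.13 with limma-voom, -0.11 with the replicate block, -0.43 without line 3, -0.16 with the length and GC offsets (-0.24 with the block) and -0.011 without scaling factors. Snhg6 was at -0.0036 without line 3 and -0.11 with the offsets (-0.12 with the block), Snhg8 at -0.062 without line 3, and Zfas1 at 0.12 without line 5. Without line 3, Dph3, Epb41l4aos, Fbxo6, Gm10443 and Rpl12 were at -0.19, -0.23, -0.16, -0.23 and -0.22, and limma-voom put Epb41l4aos at -0.0042. Slc3a2 was at 0.21 without line 4, 0.049 without line 5 and 0.067 with the offsets (0.0083 with the block). Zbtb37 was at -0.15 without line 5 and -0.026 with the offsets (-0.036 with the block).

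Over the fits without 1 library, log2 fold changes ranged from -0.50 to 0.0018 for Gas5, -0.51 to 0.056 for Snhg5, -0.031 to 0.31 for Snhg6, -0.044 to 0.54 for Snhg8, -0.49 to 0.27 for Snhg12 and -0.72 to 0.11 for Zfas1. They ranged from -0.23 to 0.29 for Dph3, -0.26 to 0.23 for Epb41l4aos, -0.18 to 0.27 for Fbxo6, -0.25 to 0.28 for Gm10443, -0.26 to 0.26 for Rpl12, -0.30 to 0.23 for Slc3a2, -0.042 to 0.35 for Zbtb37 and -0.042 to 0.22 for Znfx1. Snhg1 and Snhg15 stayed above 0 in all 18 alternatives, with no call, and without 1 library ranged from 0.13 to 0.55 and 0.16 to 0.49, lowest without the treated library of line 3. Hosts had 568 to 12505 counts in a library. Depth limits Snhg3, with at most 1 count in a library.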
